A study of Homo sapiens with 8 samples.

Results

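The 10 genes described here are 7 matrix metalloproteinases (MMP1, MMP2, MMP3, MMP11, MMP14, MMP15 and MMP24) and 3 tissue inhibitors of metalloproteinases (TIMP1, TIMP2 and TIMP3). They were chosen by gene symbol from the 16796 genes listed in each library. Messenger RNA was sequenced from LX-2, an immortalized human hepatic stellate cell line that grows as myofibroblast-like cells, kept in medium with 5% fetal bovine serum. The control group of 4 libraries received the solvent DMSO, and the OGTi group of 4 libraries received 50 µM OSMI-1 for 24 h. OSMI-1 is a small-molecule inhibitor of OGT, the enzyme that attaches O-linked N-acetylglucosamine to nuclear and cytoplasmic proteins. Replicates 1 to 4 were biological replicates of a single cell line, and each OGTi library was paired with the control library of the same number. The comparison asks how the transcripts of matrix-degrading proteases and of their inhibitors changed when OGT was inhibited at this 1 dose and 1 time.

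Matrix metalloproteinases are zinc-dependent proteases that are made as inactive precursors and cut collagens, other matrix proteins and many surface proteins. Collagenases and gelatinases are secreted, whereas membrane-type enzymes stay at the cell surface. TIMP proteins bind the active site of these enzymes and block it, and TIMP2 together with MMP14 also takes part in the activation of pro-MMP2 on the cell surface. In the liver, stellate cells that have become myofibroblasts make fibrillar collagen along with several of these proteases and inhibitors, and the balance between them is a textbook determinant of scar build-up and resolution.

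The genes lie at separate places in the genome (GRCh38, GENCODE gene spans). MMP1, at chr11:102789401-102798160 on the minus strand, and MMP3, at chr11:102835801-102843609 on the same strand, belong to a cluster that holds 9 MMP genes within 500 kb. Of these, 4 were listed in the libraries. MMP2 lies at chr16:55389700-55506691 and MMP15 at chr16:58025754-58046901, both on the plus strand. MMP11, at chr22:23768226-23784316, and TIMP3, at chr22:32801705-32863041, share chromosome 22. MMP14 lies at chr14:22836560-22849041, MMP24 at chr20:35226690-35276998, TIMP1 at chrX:47582408-47586789 and TIMP2 at chr17:78852977-78925387. TIMP1 and TIMP3 sit on the plus strand inside genes of the opposite strand, SYN1 and SYN3, and MMP24 sits likewise inside MMP24OS. MMP1 lies inside WTAPP1, a pseudogene of the opposite strand that also overlaps MMP3 and was not listed in the libraries.

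Promoter sequence was at hand for 6 of the 10 genes, and not for MMP1, MMP2, MMP3 and TIMP2, whose motifs were therefore not searched. It is shown for MMP24, TIMP1 and TIMP3 because these are the 3 genes whose change was called under all 10 alternative settings. The sequences are from RefSeq (GRCh38.p14, plus strand, 5′ to 3′) and cover chr20:35226440-35226689 for MMP24, chrX:47582186-47582407 for TIMP1 and chr22:32801455-32801704 for TIMP3, each ending before the first annotated base of the gene. Capitals mark the motifs found: the GC box GGGCGG or its reverse complement, the ETS core AGGAAG and the AP-1-like TGAGTAA.
MMP24: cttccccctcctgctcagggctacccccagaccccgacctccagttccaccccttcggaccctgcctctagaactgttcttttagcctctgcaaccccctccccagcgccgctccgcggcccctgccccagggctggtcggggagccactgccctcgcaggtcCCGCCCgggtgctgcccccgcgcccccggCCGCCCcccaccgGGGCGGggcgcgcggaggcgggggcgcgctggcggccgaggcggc
TIMP1: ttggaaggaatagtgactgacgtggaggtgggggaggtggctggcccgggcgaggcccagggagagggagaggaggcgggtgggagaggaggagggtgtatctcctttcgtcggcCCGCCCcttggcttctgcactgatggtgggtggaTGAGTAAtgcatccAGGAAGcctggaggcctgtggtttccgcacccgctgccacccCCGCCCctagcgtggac
TIMP3: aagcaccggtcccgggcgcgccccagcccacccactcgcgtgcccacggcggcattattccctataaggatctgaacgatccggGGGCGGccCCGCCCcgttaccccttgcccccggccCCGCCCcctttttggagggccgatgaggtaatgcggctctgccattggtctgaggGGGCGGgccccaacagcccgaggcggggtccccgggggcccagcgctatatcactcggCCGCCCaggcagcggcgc
All 6 promoters, searched over the 250 bases before the RefSeq start site on both strands, held at least 1 GC box, a motif present in 42.6% of the 35116 promoters of that length. TIMP3 and MMP15 had 5 GC boxes each, MMP24 and MMP11 had 3, TIMP1 had 2 and MMP14 had 1. TIMP1 was the one promoter of the 6 with TGAGTAA (2.21% of all promoters), 101 to 95 bases before the start site, and with AGGAAG (28.7% of all), 87 to 82 bases before it. The window searched for TIMP1 ran to chrX:47582435, beyond the end of the sequence shown, and these distances count from there. The AP-1 site TGAGTCA (4.2% of all) and the TEAD motif CATTCC (11.9% of all) were found in none of the 6 windows, which says only that these letters are not there. The G and C content was between 56.8% for MMP14 and 77.6% for MMP24, against a median of 58.0% over all promoters.

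The libraries held 24166756 to 28201215 assigned counts, and the 10 genes took 0.251 to 0.272% of them in control and 0.268 to 0.293% in OGTi libraries. OGT itself was lower by a log2 fold change of -0.45 ± 0.09 (SE, q = 1.48e-06), and OGA, the enzyme that removes the same sugar, by -1.80 ± 0.09 (q = 1.69e-92). Stellate cell and myofibroblast markers were plentiful, with 8 of 10 at a mean of 100 or more normalized counts, although DES and LRAT were near 0. Their summed level was 200186 to 238676 normalized counts in control and 147472 to 172651 in OGTi. Most of that sum was COL1A1 (means 84778 in control and 43931 in OGTi) and VIM (95086 and 89632). Markers of hepatocytes (3 of 6 listed) summed to 19.5 to 76.0 in control and 27.9 to 76.8 in OGTi, those of endothelial cells (4 of 5 listed) to 49.7 to 91.1 and 17.0 to 33.8, and those of epithelium (3 of 4 listed) to 70.5 to 142 and 36.2 to 77.1. The macrophage list (3 of 5 listed) summed to 2477 to 4080 in control and 5605 to 9390 in OGTi, nearly all of it from CD68, a lysosomal protein, while the leukocyte gene PTPRC stayed between 0 and 11.5. Whether these shifts bear on the MMP and TIMP values was not tested. In bulk RNA, fewer cells carrying a transcript cannot be told apart from less transcript per cell.

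Of the 10 genes, 7 passed the threshold of q ≤ 0.05 (DESeq2 Wald test with the replicate number as a block, Benjamini-Hochberg adjusted over 14028 genes), against 46.6% of all genes. MMP1, MMP11, MMP15 and TIMP1 were higher in OGTi (22.7% of all genes were called higher), and MMP2, MMP24 and TIMP3 were lower (24% of all were called lower). MMP3, MMP14 and TIMP2 did not pass. A call alone therefore does not set these genes apart from the rest of the transcriptome. A change of at least 2-fold was called for 3 of them, MMP1, MMP11 and MMP24, against 8.55% of all genes. The median log2 fold change was -0.05 over the 10 genes and 0.00 over all genes. Below, normalized counts are counts divided by the DESeq2 size factor of the library, given as mean ± SD of 4 libraries, log2 fold changes are OGTi over control with their SE, and per-pair changes are log2 ratios of the 2 libraries with the same number.

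**Figure D1:**
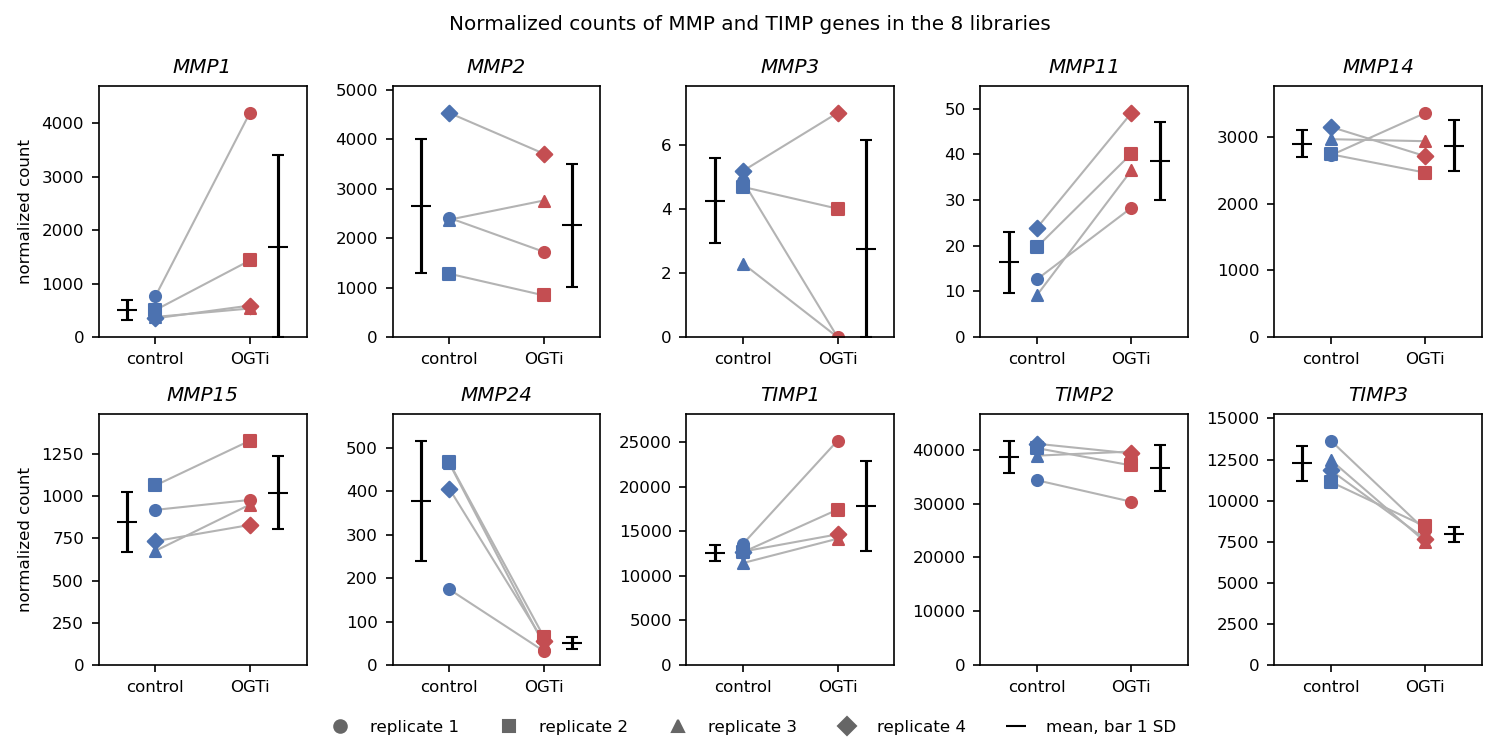
Normalized counts (y axis, linear, from 0) of the 10 genes in the 4 control and 4 OGTi libraries, one panel per gene. Symbols show replicates 1 to 4, lines join libraries of the same number, and black bars give the mean and 1 SD, drawn down to 0 where the SD exceeds the mean. MMP24 and TIMP3 are lower in every OGTi library than in any control library, MMP11 and TIMP1 are higher in every one, and the spread of MMP1 comes mostly from OGTi replicate 1 at 4193.

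Among the secreted collagenases, MMP1, which cuts fibrillar collagens, was 763, 506, 378 and 353 normalized counts in control replicates 1 to 4 and 4193, 1434, 536 and 591 in OGTi. All 4 pairs moved upward, but the lowest OGTi libraries lay within the control range and replicate 1 was far above the rest. MMP1 rose from 500 ± 188 to 1689 ± 1719, a log2 fold change of 1.30 ± 0.42 (95% interval 0.47 to 2.12, q = 0.00596), or 2.46-fold. The change by pair was 2.46 in replicate 1, 1.50 in replicate 2, 0.50 in replicate 3 and 0.74 in replicate 4. Without replicate 1 the estimate was 0.93 (q = 9.76e-07), and without replicate 2 it was 1.22 and missed the threshold (q = 0.0818). The direction of MMP1 was therefore shared by the replicates, whereas its size was not.

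MMP2, the gelatinase that degrades denatured and basement membrane collagen, was 2412, 1283, 2375 and 4535 normalized counts in control and 1727, 846, 2763 and 3711 in OGTi. Replicate 2 was the lowest and replicate 4 the highest in both groups, and the groups overlapped over nearly their whole range. The level was 2651 ± 1360 in control and 2262 ± 1244 in OGTi, and MMP2 fell with a log2 fold change of -0.29 ± 0.11 (95% interval -0.51 to -0.07, q = 0.0260). Pairs 1, 2 and 4 changed by -0.48, -0.60 and -0.29, and pair 3 went the other way with 0.22. This call rested on the pairing, since without the block the estimate was -0.23 with q = 0.778. It was also lost without replicate 1 (-0.22, q = 0.491), replicate 2 (-0.18, q = 0.266) or replicate 4 (-0.29, q = 0.109), and kept without replicate 3 (-0.46, q = 5.16e-05).

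The stromelysins were scarce. MMP3, which acts on proteoglycans and activates other pro-MMPs, had 5, 5, 2 and 5 counts in the control libraries and 0, 4, 0 and 7 in OGTi, too few for a fold change to be read, and a difference was not detectable at this depth (q = 0.353). MMP11, a stromelysin that furin-like proteases activate inside the cell, was 12.7, 19.7, 9.19 and 23.9 normalized counts in control and 28.3, 40.2, 36.5 and 49.1 in OGTi. Every OGTi library of MMP11 lay above every control library, a separation seen for 40% of all genes and for 4 of these 10. MMP11 rose from 16.4 ± 6.67 to 38.5 ± 8.60, a log2 fold change of 1.28 ± 0.45 (95% interval 0.40 to 2.15, q = 0.0117), with per-pair changes of 1.13, 1.01, 1.93 and 1.02. At these low counts the call was lost when either replicate 3 (1.07, q = 0.0957) or replicate 4 (1.37, q = 0.0647) was left out.

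The 3 membrane-type enzymes went 3 ways. MMP14, the main cell-surface collagenase and an activator of pro-MMP2, was 2721, 2736, 2963 and 3146 normalized counts in control and 3356, 2462, 2932 and 2709 in OGTi. The means of MMP14 were 2892 ± 203 and 2865 ± 380, and the log2 fold change was -0.02 ± 0.09 (95% interval -0.20 to 0.16, q = 0.885). Its 4 pairs gave 0.30, -0.15, -0.01 and -0.22, and the sign of the estimate changed when replicate 2 (0.025) or replicate 4 (0.045) was left out.

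MMP15, a related transmembrane enzyme, was 919, 1063, 676 and 733 normalized counts in control and 978, 1329, 950 and 829 in OGTi. The groups overlapped, and all 4 pairs were higher in OGTi, by 0.09, 0.32, 0.49 and 0.18; 6 of the 10 genes had 1 direction in all 4 pairs, against 58.5% of all genes. MMP15 rose from 848 ± 177 to 1022 ± 215, with a log2 fold change of 0.27 ± 0.10 (95% interval 0.07 to 0.47, q = 0.0214). As for MMP2, the call depended on the pairing (0.27 with q = 0.185 without the block), and it was lost without replicate 2 (0.25, q = 0.134), replicate 3 (0.19, q = 0.197) or replicate 4 (0.30, q = 0.0576).

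MMP24, a membrane-type enzyme best known from the nervous system, was 174, 467, 465 and 407 normalized counts in control and 32.0, 65.3, 47.1 and 54.1 in OGTi. The lowest control library was still above the highest OGTi library by a wide margin. With means of 378 ± 139 and 49.6 ± 13.9, MMP24 fell strongly, with a log2 fold change of -2.89 ± 0.20 (95% interval -3.28 to -2.50, q = 1.71e-45), or 7.42-fold lower, which was the largest change among the 9 genes with counts enough for a fold. The pairs gave -2.43, -2.83, -3.29 and -2.90. MMP24OS, the gene on the opposite strand that spans all of MMP24, was 3587 ± 213 in control and 3341 ± 383 in OGTi, with a log2 fold change of -0.11 ± 0.08 (q = 0.309). MMP24OS was chosen for its position, and the libraries were stranded.

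**Figure D2:**
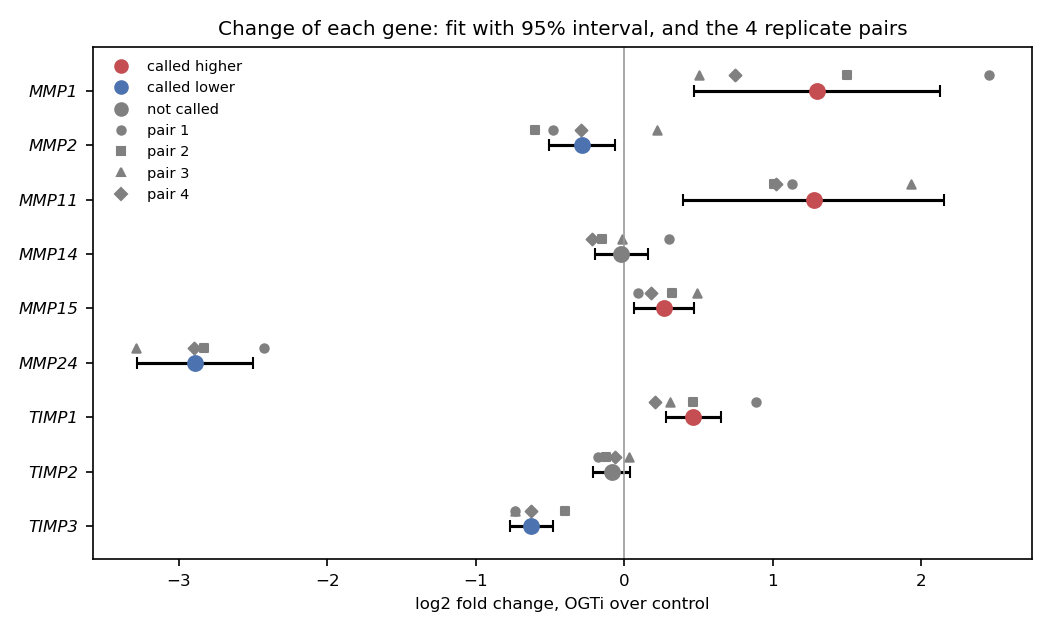
Log2 fold change of OGTi over control (x axis) for 9 of the 10 genes, with large points for the DESeq2 estimate, bars for its 95% interval and small grey symbols for the 4 replicate pairs. Red was called higher, blue lower and grey not called. MMP3 is left out for its low counts. The intervals of MMP24 and TIMP3 lie far below 0 with all pairs on the same side, that of TIMP1 lies above 0, and 1 of the 4 pairs of MMP2 is on the other side of 0.

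The 3 inhibitors were among the genes with the most counts, and they too moved apart. Their mean normalized counts, not divided by transcript length, were at percentiles 97.4 (TIMP3), 98.7 (TIMP1) and 99.8 (TIMP2) of the genes tested. TIMP1, a secreted inhibitor of most soluble MMPs and a long-used marker of liver scarring, was 13604, 12667, 11446 and 12735 normalized counts in control and 25186, 17448, 14174 and 14666 in OGTi. All OGTi libraries of TIMP1 lay above all control libraries, with replicate 1 the highest. TIMP1 rose from 12613 ± 887 to 17868 ± 5087, a log2 fold change of 0.47 ± 0.10 (95% interval 0.28 to 0.65, q = 5.36e-06), or 1.38-fold. The pairs gave 0.89, 0.46, 0.31 and 0.20, and without replicate 1 the estimate was 0.33 (q = 8.49e-05).

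TIMP2, which binds pro-MMP2 as well as inhibiting the active enzymes, was 34349, 40324, 38925 and 41133 normalized counts in control and 30346, 37099, 39692 and 39337 in OGTi. Its groups overlapped, and replicate 1 was the lowest in both. The means of TIMP2 were 38683 ± 3030 and 36619 ± 4336, with a log2 fold change of -0.08 ± 0.06 (95% interval -0.21 to 0.04, q = 0.292).

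TIMP3, the inhibitor that binds to the extracellular matrix and also blocks several ADAM proteases, was 13648, 11139, 12470 and 11838 normalized counts in control and 8197, 8425, 7490 and 7663 in OGTi. The OGTi libraries lay close together and below every control library. The means were 12274 ± 1065 and 7944 ± 440, and TIMP3 fell with a log2 fold change of -0.63 ± 0.07 (95% interval -0.77 to -0.48, q = 1.04e-15), or 1.54-fold lower, and the pairs gave -0.74, -0.40, -0.74 and -0.63. SYN1 and SYN3, chosen because they overlap TIMP1 and TIMP3 on the other strand, had means of 63.4 or fewer normalized counts in either group and were not called (q = 0.193 and q = 0.834).

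**Figure D3:**
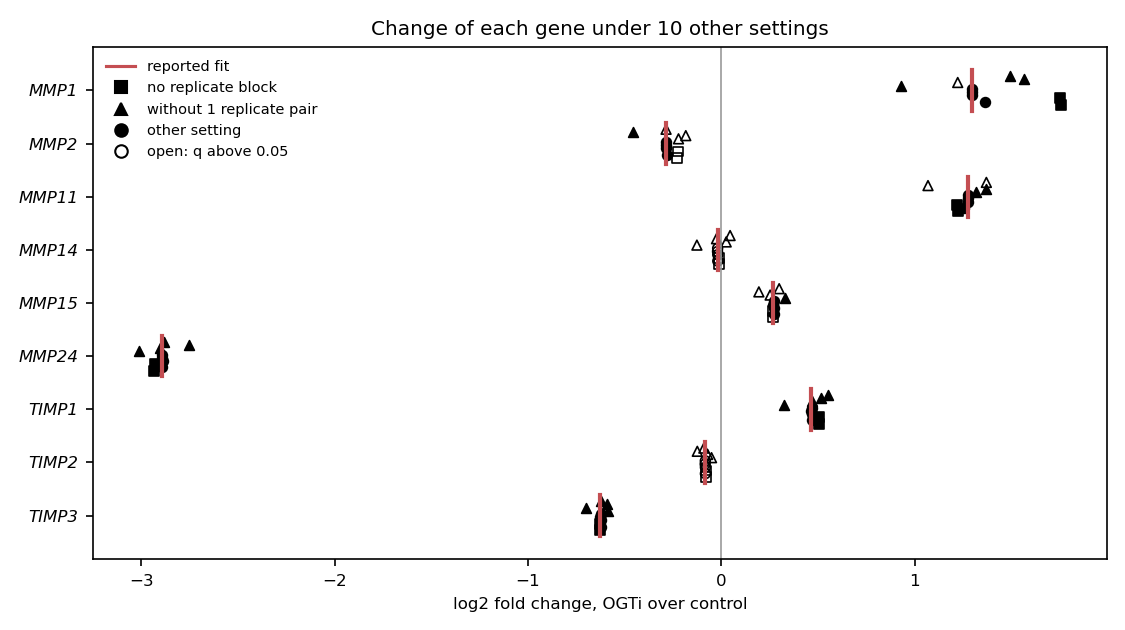
Log2 fold change (x axis) of 9 of the genes under 10 other settings, against the reported estimate (red line). Squares are the settings without the replicate block, triangles leave out 1 replicate pair, circles are the other settings, and open symbols have q above 0.05. MMP24, TIMP1 and TIMP3 are filled throughout, whereas MMP2 and MMP15 are open under 5 of the 10 settings.

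Read per kilobase of the longest annotated transcript, so that genes can be compared with each other, TIMP1 and TIMP2 stood first in control with 11519 ± 810 and 10592 ± 830 normalized counts per kb. Their control ranges overlapped, and in OGTi they parted to 16318 ± 4646 for TIMP1 and 10027 ± 1187 for TIMP2. TIMP3 followed with 2670 ± 232 in control and 1728 ± 95.7 in OGTi. The proteases were lower, led in control by MMP2 at 755 ± 387 and MMP14 at 751 ± 52.6, which did not differ beyond their spread. Below them were MMP1 at 254 ± 95.2 and MMP15 at 209 ± 43.6, which also overlapped, then MMP24 at 86.5 ± 31.7, and MMP11 at 4.28 ± 1.75 and MMP3 at 2.34 ± 0.73, which overlapped again. In OGTi the mean of MMP1 reached 857 ± 872 per kb, overlapping TIMP3 above it and MMP14 and MMP2 below it, and MMP24 at 11.3 ± 3.19 came down into the range of MMP11 at 10.1 ± 2.25. With the mean length of the coding transcripts instead, MMP15 ranked above MMP1 in control, MMP2 and MMP14 above MMP1 in OGTi and MMP11 above MMP24 in OGTi, and TIMP1 and TIMP2 no longer overlapped in control, so those orders depend on the length chosen.

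The shares here and the sums and ratios below cover only the 7 MMP genes, and leave out other expressed ones such as MMP17 and MMP19. Of the summed level per kb of the 7 MMP genes, MMP1 took 12.7 ± 5.27% in control, and 56.8, 37.1, 13.1 and 13.1% in OGTi replicates 1 to 4. OGTi replicates 3 and 4 thus stayed inside the control range of 6.96 to 18.9%. Against the control library of the same number, however, the share of MMP1 was higher in every pair. In replicate 4 it went from 6.96% to 13.1%, and the gain was largest in replicates 1 and 2. MMP24 took 4.34 ± 1.95% in control and 0.503 ± 0.233% in OGTi. The share of MMP14 was 37.0 ± 4.65% in control and 30.8 ± 5.62% in OGTi, and that of MMP2 was 35.1 ± 11.8% and 27.3 ± 17.2%. These shares depend on the length chosen. With the mean length of the coding transcripts, the mean share of MMP1 was 8.32% in control and 22.1% in OGTi, and that of MMP24 2.83% and 0.343%. MMP2 then stood above MMP14 in both groups, with 41.9% against 34.0% in control and 33.5% against 29.8% in OGTi.

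Within the inhibitor pool the share of TIMP1 was 46.5 ± 2.62% in control and 57.3 ± 8.56% in OGTi, that of TIMP2 was 42.8 ± 3.23% and 36.5 ± 8.07%, and that of TIMP3 was 10.8 ± 1.07% and 6.20 ± 0.547%. With the mean length of the coding transcripts, the means were 54.1% and 64.2% for TIMP1, 38.1% and 31.4% for TIMP2, and 7.86% and 4.36% for TIMP3. The ratio of TIMP1 to TIMP3 per kb was 4.18, 4.77, 3.85 and 4.52 in control and 12.9, 8.69, 7.94 and 8.03 in OGTi. It was higher in OGTi in 4 of 4 pairs with no overlap, by 1.09 on the log2 scale (SD over pairs 0.367). No test was made of any ratio.

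The 3 TIMP genes summed to 24781 ± 696 normalized counts per kb in control and 28073 ± 3520 in OGTi, and the 7 MMP genes to 2061 ± 367 and 2518 ± 829, the latter raised by OGTi replicate 1 at 3745. The ratio of the sums was 12.3 ± 1.94 in control and 11.7 ± 2.24 in OGTi, with overlapping groups and 3 of 4 pairs lower. The mean log2 change of this ratio was -0.083, and its sign turned with the mean length of the coding transcripts (0.060) or without replicate 1 (0.040), so the data give it no direction. TIMP2 to MMP14 was 14.1 ± 0.975 and 13.8 ± 2.89, although 3 of 4 pairs were higher in OGTi, and its mean log2 change of -0.064 became 0.076 without replicate 1. The ratio of MMP14 to MMP2 was 1.19 ± 0.551 and 1.52 ± 0.892, with 3 of 4 pairs higher. The groups overlapped for both of these ratios. TIMP1 to MMP1 was 49.2 ± 14.0 in control and 31.2 ± 17.8 in OGTi, lower in 4 of 4 pairs although the groups overlapped.

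**Figure D4:**
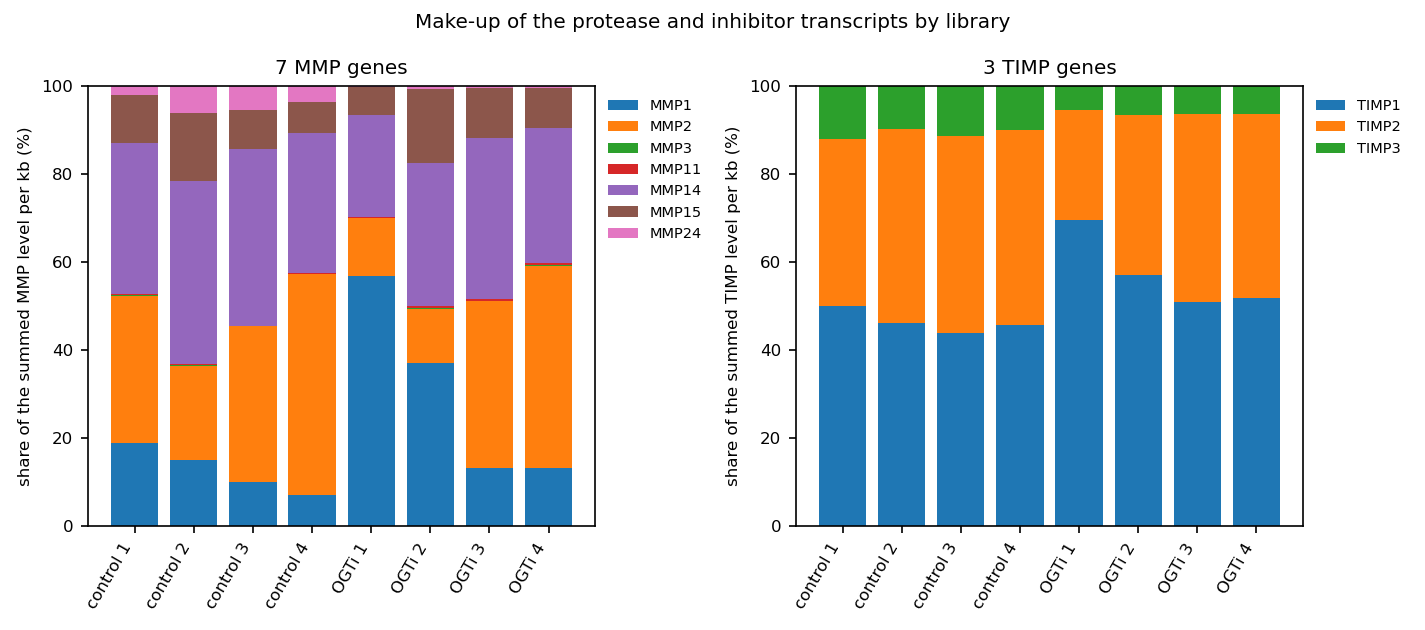
Share of each gene in the summed normalized counts per kb (y axis, percent) of the 7 MMP genes (left) and the 3 TIMP genes (right), one bar per library. MMP1 fills 56.8% and 37.1% of the protease bar in OGTi replicates 1 and 2 and 13.1% in replicates 3 and 4, and the TIMP3 part of the inhibitor bar is smaller in every OGTi library than in every control library.

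Among 17 other MMP and TIMP genes, 6 had a q, and 1 of them was called, against 46.6% of all genes. MMP17, a membrane-type enzyme held by a lipid anchor, was 368, 311, 186 and 226 normalized counts in control and 594, 558, 397 and 357 in OGTi. All 4 pairs were higher although the groups overlapped, and MMP17 rose from 273 ± 82.2 to 477 ± 117 with a log2 fold change of 0.82 ± 0.14 (q = 2.19e-08). MMP16, also membrane-type, was 50.7 ± 12.9 and 81.6 ± 26.4 and just missed the threshold (0.66 ± 0.29, q = 0.0547). MMP19 was well measured at 770 ± 73.4 and 820 ± 38.7 with 0.09 ± 0.10 (q = 0.492). MMP9, the other gelatinase, MMP23B and MMP25 had means of 27.2 or fewer normalized counts and were not called (q = 0.913, q = 0.941 and q = 0.524), and TIMP4 had at most 5.20 and no q.

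Genes that activate, dock or clear MMPs were called in both directions, with 3 of 13 higher, 5 lower and 5 not called. Their median log2 fold change was -0.13. Of all genes, 22.7% were called higher and 24% lower. THBS2, a matricellular protein that carries MMP2 to its clearance receptor, fell from 11971 ± 2161 to 4910 ± 882 normalized counts (-1.28 ± 0.08, q = 3.46e-54). Chosen after their values were seen, FURIN, a convertase that activates MMP11, MMP14 and MMP15 among others, fell from 5453 ± 468 to 4405 ± 315 (-0.31 ± 0.07, q = 6.68e-05), and the related convertase PCSK5 rose from 17.1 ± 5.86 to 82.2 ± 35.9 (2.25 ± 0.36, q = 5.67e-09). Plasmin can activate pro-MMP1 and pro-MMP3, and of 5 genes with a q that promote or inhibit plasminogen activation, 2 were higher, none was lower and 3 were not called, with a median of 0.40. PLAT, tissue plasminogen activator, was 1990, 2370, 1655 and 1820 normalized counts in control and 5507, 4324, 3351 and 3228 in OGTi, a log2 fold change of 1.05 ± 0.10 (q = 1.14e-23). The other gene called higher, named after its values were seen, was SERPINE2, an inhibitor of plasminogen activators, with 0.54 ± 0.08 (q = 1.27e-10).

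AP-1 and ETS factors bind promoters of several MMP genes, and of 12 such factors 5 were called higher, 4 lower and 3 not called, with a median of 0.09. JUNB, an AP-1 subunit, rose from 464 ± 47.1 to 1201 ± 173 normalized counts (1.37 ± 0.12, q = 4.04e-30), and ETV5, an ETS factor, from 1840 ± 527 to 4392 ± 193 (1.31 ± 0.22, q = 2.26e-08). FOSL2, named after its values were seen as the most abundant of those called lower, fell from 10805 ± 1271 to 5535 ± 695 (-0.97 ± 0.06, q = 5.89e-51). The matrix proteins that MMPs cut went 1 way: all 7 of 9 listed genes that had a q were lower. Their median was -0.66, and 24% of all genes were called lower. The list was chosen with earlier results known and holds COL1A1, COL1A2 and COL3A1, which the paper reports as decreased by OGTi. COL1A2 fell from 7891 ± 1551 to 2991 ± 490 (-1.39 ± 0.10, q = 2.77e-40) and COL3A1 from 5102 ± 1370 to 884 ± 119 (-2.50 ± 0.11, q = 3.36e-112). The proteases and inhibitors were split between higher, lower and not called, as was each of the lists of activators and of AP-1 and ETS factors. All genes were split as well, with 22.7% called higher and 24% called lower.

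**Figure D5:**
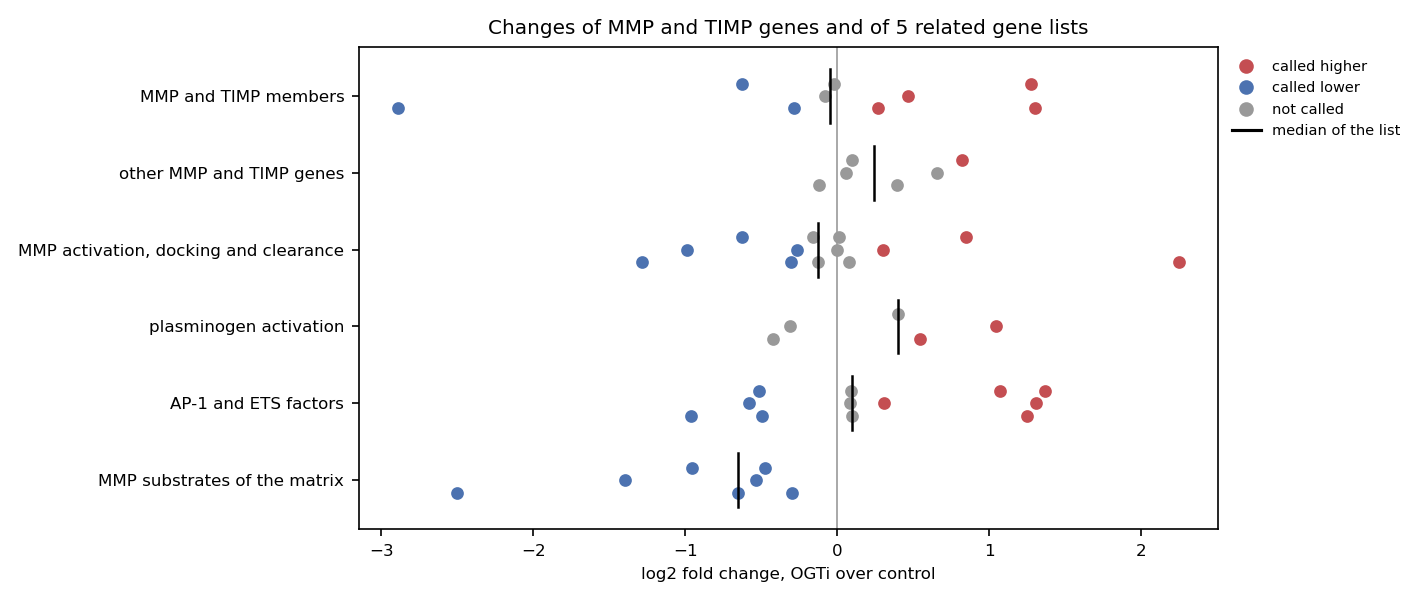
Log2 fold change (x axis) of the 10 MMP and TIMP genes (members) and of 5 lists of related genes, one point per gene with a q. Red points were called higher, blue lower and grey not called, and the black line is the median of the list. MMP3 counts in the median but is not drawn, for its low counts. All 7 matrix substrates lie below 0, and points of the 10 genes lie on both sides from -2.89 for MMP24 to 1.30 for MMP1.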

How the data were processed

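RNA-seq was done on 8 libraries of LX-2 cells, 4 per group. The authors prepared stranded, oligo-dT enriched libraries, aligned read pairs to hg38 with Bowtie2 2.3.5.1 and estimated expected counts per gene with RSEM 1.3.1, and the submitters' notes also name DESeq2 1.36.0. The deposited values are these expected counts, not scaled for depth. None of the 10 genes had a fractional count. A deposited table of the authors' own comparison (mean, fold change, its error, statistic and p-values) was not used.

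Counts were rounded and tested with DESeq2 1.42.0 in R 4.3.3 (Wald test, model of replicate and group, total of at least 10 counts, call at q ≤ 0.05, fold changes not shrunken), as in the study's methods. This left 14895 genes, of which 14028 had a q. The replicate numbers were used to pair the groups, as in the study's methods. Over 10994 genes, deviations from the group means correlated with r of 0.372, 0.391, 0.165 and 0.327 for replicates 1 to 4. Control 3 with OGTi 4 gave 0.343 and control 4 with OGTi 3 gave 0.255, so the numbers do not single out replicates 3 and 4. The calls of MMP2 and MMP15 rested on this pairing. The study's methods describe the replicates as independent experiments. edgeR 4.0.16 (quasi-likelihood), TMM size factors, other filters and leaving out each pair were the alternatives. The fits were tested on simulated data. SE come from the DESeq2 fit to 4 pairs, which estimates the spread of a gene partly from the other genes. Intervals are normal limits at the 95% level, and do not give the spread of the 4 pairs alone. Lengths and positions are from GENCODE release 44, promoters from RefSeq. Values per pair add 0.5 to each normalized count.

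The genes and lists were chosen with earlier results of these data known. The text names the 10 genes, OGT and OGA, every other MMP or TIMP gene tested, and of each further list the called genes with an absolute log2 fold change of at least 1 and a mean of at least 100 normalized counts, or else the 2 with the smallest q. Other names are said to be chosen after their values were seen or for their position.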

Additional observations from a re-analysis of the deposited data

Results flagged for a closer look

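Of 36 sets of 4 values examined for a library far from the others of its group (the 10 genes, their sums, ratios and joint share of all counts, in each group), 1 stood out, which is no more than chance gives at about 1 in 20. For the ratio of TIMP1 to TIMP3 per kb, replicate 1 of OGTi had 12.9, while replicates 2 to 4 of that group lay between 7.94 and 8.69, so that the gap was 0.849 of the range of the group. The same library had the highest MMP1 and TIMP1 of the 8. Without it the OGTi ratios were still above all 4 control ratios, which were 3.85 to 4.77.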

How the results depend on the processing

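Under 10 alternatives, MMP24 (-3.01 to -2.75), TIMP1 (0.33 to 0.55) and TIMP3 (-0.70 to -0.59) were called in the same direction each time, and TIMP2 (-0.12 to -0.05) and MMP14 were never called. Without the replicate block the calls of MMP2 (-0.23 by DESeq2 and -0.23 by edgeR) and MMP15 (0.27 by each) were lost, and the block changed no other call among the 10 genes. Leaving out each pair gave 0.93 to 1.57 for MMP1, -0.46 to -0.18 for MMP2, 1.07 to 1.37 for MMP11, 0.19 to 0.33 for MMP15 and -0.13 to 0.045 for MMP14, whose sign turned without replicate 2 (0.025) or 4 (0.045). It gave 2 to 4 of the 10 genes called higher, 2 to 3 called lower and 5127 to 5690 genes called in all, against 6541 in the full fit and 6041 to 7074 under the other settings. Fewer samples enter those fits. MMP3 had no value under the stricter filter. Transcript counts do not measure protein, secretion or enzyme activity, and 1 dose at 1 time in a single line with 1 inhibitor was measured. MMP3, and to a lesser degree MMP11, was limited by depth.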
